A study of Mus musculus with 28 samples.

Results

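The comparison asks whether the response to 10 µM vorinostat differed between CD8 and CD4 T cells. For each gene the change with the drug in CD4 cells (vorinostat minus control) was subtracted from the change in CD8 cells, by replicate number, so a positive value means that CD8 cells ended higher relative to CD4 cells than they began. The 8 arrays are 2 each of CD4 control, CD4 with vorinostat 10 µM, CD8 control and CD8 with vorinostat 10 µM, out of 28 arrays in the series. All cells were mouse splenic T cells taken by negative selection (the unwanted cells are removed, the wanted cells stay unlabelled) and stimulated for 2 days with antibodies to CD3 and CD28, the controls included. Treated cells then had the drug for 1 day. The other arrays hold the same cells with vorinostat at 0.5 or 2 µM or with romidepsin at 2, 10 or 30 nM. The labels give no strain, age, sex or number of animals and no vehicle for the controls. They do not say whether the controls were kept for the added day of culture. If they were not, the drug and the added day cannot be told apart. The labels also do not say that replicates are separate cultures or animals, so p-values cannot be read as a spread between animals. They measure only the spread left among all 28 arrays once the difference between the replicate numbers is taken out.

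Vorinostat blocks the zinc-dependent histone deacetylases, the enzymes that take acetyl groups off histones and other proteins. Their block raises histone acetylation, and both silent and active genes can change. CD4 T cells mostly help other immune cells through secreted cytokines such as IL-4, IL-10 and IL-21, whereas CD8 T cells mostly kill infected or transformed cells and carry many receptors shared with natural killer (NK) cells. The array measures RNA from a whole culture, so fewer cells of a type and less RNA per cell cannot be told apart.

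Values are log2 expression, on which 1 unit is a doubling. They bottom out at about 2.27, and a level over 4.27 was taken as detected. Of 18193 genes named by the arrays' probe sets, 9870 were over that level in at least 2 of the 28 arrays and were tested. Between 8480 and 9212 genes were detected in each of the 8 arrays. The labels held for the coreceptors in the controls: Cd4 stood at 8.55 and 8.02 in CD4 cells and at the floor in CD8 cells, and Cd8b1 at 11.93 and 12.18 in CD8 cells against 7.49 and 7.99 in CD4 cells. With vorinostat Cd4 was at 2.39 and 4.72 in CD4 cells, so this marker no longer identifies them, while Cd8b1 stayed at 9.93 and 11.10 in CD8 cells. The replicate numbers stood apart: arrays numbered 1 had the Y-linked gene Eif2s3y at 11.38 to 11.80 and Xist, the RNA of the silent X chromosome, at the floor, and arrays numbered 2 had Xist at 12.02 to 12.61 and Eif2s3y at the floor. The fit therefore holds the replicate number as a block within each cell type. The gap between 3' and 5' actin probe sets, a sign of RNA integrity, was 0.94 and 0.78 in the CD4 controls, 1.62 and 1.09 in CD4 cells with drug, 0.86 and 0.79 in the CD8 controls and 1.43 and 1.16 in CD8 cells with drug.

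The 2 cell types answered the drug mostly alike, and 1054 of 9870 genes (10.7%) differed in their answer at an adjusted p under 0.05. Of these, 529 (5.36%) had the higher response in CD8 cells and 525 (5.32%) the lower one, and all 1054 had the same sign in both replicate numbers, with 733 larger in replicate 1. The test uses the mean of these same 2 values, so a call makes equal signs likely and the agreement is not replication. The share of equal signs over all genes was not counted. Within each cell type 6040 genes (61.2%) changed in CD4, 3152 up (31.9%) and 2888 down (29.3%), and 6318 (64%) in CD8, 3120 up (31.6%) and 3198 down (32.4%). Both changes were called for 4714 genes, in the same direction for 4600 and in opposite directions for 114. Across genes the 2 responses had a Pearson r of 0.780 in replicate 1 and 0.807 in replicate 2, a description, as genes are not independent. The typical gene's difference had a 95% interval of 0.50 log2 either way with the replicate block and 1.38 without it, and the median difference over all genes was -0.06. The call depends on the block: without it 57 genes passed (0.578%), 52 higher (0.527%) and 5 lower (0.0507%) in CD8, all of them among the 1054, and 526 (5.33%) had an unadjusted p under 0.05. Leaving out CD8 control replicate 1, CD4 control replicate 1 or CD4 vorinostat replicate 1 left 438, 505 and 562 genes, the 8 arrays alone with 1 shared block 29, and adding the actin gap as a covariate gave 1650.

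**Figure D1:**
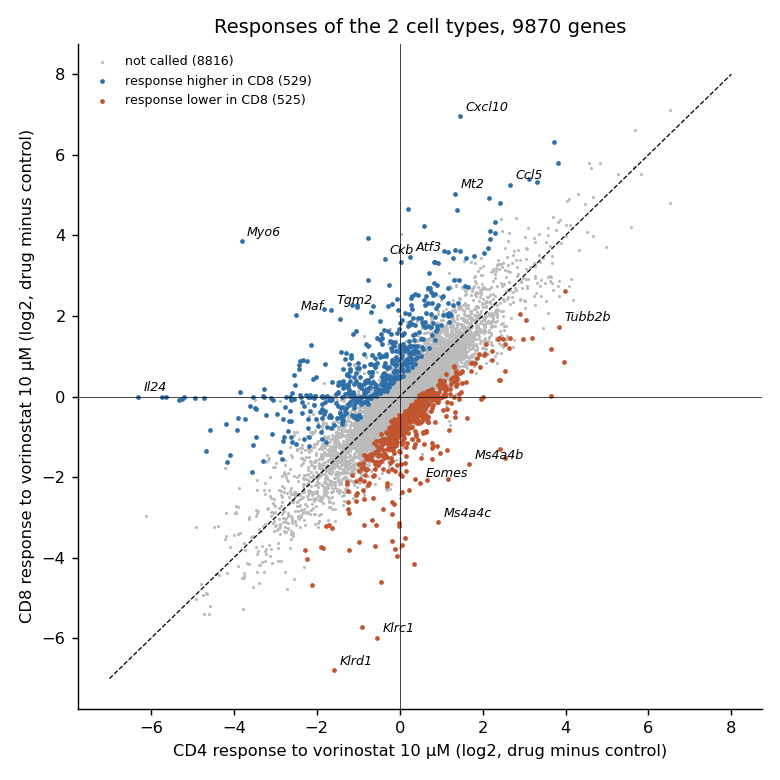
Each point is 1 of 9870 genes, with its CD4 response to vorinostat 10 µM on the horizontal axis and its CD8 response on the vertical axis, both in log2 units as the mean of 2 arrays minus the mean of 2 controls. Most points lie along the dashed line of equal response, with the 529 genes higher in CD8 (blue) above it and the 525 lower in CD8 (orange) below it.

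The 529 genes with the higher response in CD8 came about in 5 ways. CD4 alone fell in 183, CD8 alone rose in 156, both rose in 86, CD4 fell while CD8 rose in 60, and both fell in 44. Among the 525 with the lower response, CD8 alone fell in 214, CD4 alone rose in 127, both fell in 85, CD4 rose while CD8 fell in 54, and both rose in 45. "Alone" means here that the other cell type's own test was not passed. For 205 of the 1054 genes at least 1 of the 4 group means was under the detection level. A level under detection cannot be measured to fall: 79 of these genes were under the level in CD8 cells with and without drug, and 57 in CD4 cells. For the 79 and the 57, the sign of the difference mostly restates the change in the other cell type.

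Among the chemokines, Cxcl10 and Ccl5 had the higher response in CD8 cells and Xcl1 the lower one. Cxcl10, a chemokine that attracts activated T cells, stood at 4.09 and 4.61 in the CD4 controls, 5.76 and 5.84 in CD4 cells with vorinostat, 4.83 and 4.84 in the CD8 controls and 12.51 and 11.07 in CD8 cells with vorinostat. The 6 other arrays lay between 4.09 and 5.84, and both CD8 drug arrays stood far above them. Cxcl10 rose in both cell types, and was 124-fold higher with drug in CD8 cells and 2.73-fold higher in CD4 cells, a difference of 5.50 ± 0.78 (SE, adjusted p = 0.000578). Ccl5, another chemokine of effector T cells, was at 8.73 and 8.92 in the CD8 controls and 14.34 and 13.83 with the drug, against 6.96 and 6.23 in the CD4 controls and 10.09 and 8.43 with the drug. It also rose in both, with a difference of 2.59 ± 0.70 (SE, adjusted p = 0.0289), which lost its call without either CD4 control, CD4 vorinostat replicate 2, CD8 control replicate 1 or CD8 vorinostat replicate 2 (1.91 to 3.27, highest adjusted p = 0.157). Xcl1, a chemokine made by CD8 T cells, stood at 14.004 and 13.20 in the CD8 controls and 10.03 and 11.93 with the drug, against 3.45 and 3.94 in the CD4 controls and 3.42 and 3.58 with the drug, and its difference of -2.43 ± 0.68 (SE, adjusted p = 0.0328) also lost its call without CD4 control replicate 2 or any of the 4 replicate 1 arrays (-3.66 to -1.19, highest adjusted p = 0.147).

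The metallothioneins Mt1 and Mt2, small proteins that bind zinc and copper, began lower in CD8 cells and ended level with CD4 cells. Mt2 stood at 11.17 and 11.31 in the CD4 controls, 12.35 and 12.81 in CD4 cells with vorinostat, 7.52 and 8.58 in the CD8 controls and 13.30 and 12.86 in CD8 cells with vorinostat. In the controls every CD8 array was below every CD4 array, and with the drug both CD8 arrays were above both CD4 arrays. Mt1 stood at 11.89 and 11.67 in the CD4 controls, 13.11 and 13.23 in CD4 cells with vorinostat, 8.22 and 8.70 in the CD8 controls and 13.31 and 12.86 in CD8 cells with vorinostat. Mt1 rose in both cell types, and was 24.6-fold higher in CD8 and 2.63-fold higher in CD4 with drug, so that the control gap, 9.97-fold lower in CD8, had closed to 1.07-fold lower. The differences were 3.70 ± 0.48 (SE, adjusted p = 0.000301) for Mt2 and 3.23 ± 0.37 (SE, adjusted p = 0.000128) for Mt1, and both genes were also called without the block.

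The stretch before the start site is shown for these 2 genes, because neighbouring genes of 1 family moved together, and for Cxcl10 and Ifit1, which are known interferon-induced genes with a called difference. Sequences are RefSeq's, on GRCm38.p6, and run over the 250 bases before the start, in the direction of the gene. The metal response element core was searched as TGCACNC or TGCGCNC and the interferon-stimulated element as GAAA, any 2 bases and GAAA again, on both strands; capitals mark the matches, and overlapping matches were counted each.
Mt1, chr8:94178839-94179088, + strand: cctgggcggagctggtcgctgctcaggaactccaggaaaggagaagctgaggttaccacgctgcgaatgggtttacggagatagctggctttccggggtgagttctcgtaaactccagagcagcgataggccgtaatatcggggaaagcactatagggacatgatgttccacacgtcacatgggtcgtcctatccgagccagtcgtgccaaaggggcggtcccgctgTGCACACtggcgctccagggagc
Mt2, chr8:94172368-94172617, + strand: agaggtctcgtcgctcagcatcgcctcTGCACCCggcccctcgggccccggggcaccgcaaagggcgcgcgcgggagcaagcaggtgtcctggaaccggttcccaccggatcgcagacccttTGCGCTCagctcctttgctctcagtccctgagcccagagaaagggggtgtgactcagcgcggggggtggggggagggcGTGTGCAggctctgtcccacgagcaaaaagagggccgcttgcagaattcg
Cxcl10, chr5:92348890-92349139, - strand: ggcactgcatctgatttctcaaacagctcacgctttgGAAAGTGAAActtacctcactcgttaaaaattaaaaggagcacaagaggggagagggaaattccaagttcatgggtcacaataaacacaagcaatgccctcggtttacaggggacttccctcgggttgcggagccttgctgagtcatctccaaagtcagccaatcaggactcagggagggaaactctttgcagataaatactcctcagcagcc
Ifit1, chr19:34640639-34640888, + strand: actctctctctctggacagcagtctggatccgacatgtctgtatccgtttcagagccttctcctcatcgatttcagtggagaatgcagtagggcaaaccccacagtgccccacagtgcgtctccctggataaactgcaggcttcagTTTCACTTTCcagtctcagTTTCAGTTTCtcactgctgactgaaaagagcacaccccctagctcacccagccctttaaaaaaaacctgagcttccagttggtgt
The metal element core occurred 1 time before Mt1 and 3 times before Mt2, 1 of the 3 on the reverse strand. It occurred in 21.4% of all 32851 stretches of this length. The interferon-type element occurred 1 time before Cxcl10 and 2 times before Ifit1, both on the reverse strand there. It occurred in 2.98% of all stretches, which says only how common these letters are. Each motif was chosen for genes known to respond to its factor, so the matches are a description and not an enrichment, and a match of letters is not a measured site.

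Ifit1, an antiviral interferon-induced gene, was detected in the CD8 drug arrays alone, at 2.27 and 2.46 in the CD4 controls, 2.33 and 3.56 in CD4 cells with vorinostat, 2.31 and 2.61 in the CD8 controls and 6.52 and 6.87 in CD8 cells with vorinostat. It was at least 5.38-fold higher with drug in CD8 cells, and the difference was 3.66 ± 0.62 (SE, adjusted p = 0.00209). Usp18, which restrains interferon signalling, rose in both cell types, by 0.69 ± 0.19 in CD4 and 2.33 ± 0.19 in CD8, with a difference of 1.64 ± 0.26 (SE, adjusted p = 0.00138). Of the interferon response list, 2 of 20 tested members were called higher in CD8 and none lower, which is 10.0% beside 10.7% of all genes. The list's median difference was -0.10 beside -0.06 over all genes.

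The stress-induced transcription factor Atf3 and the small heat shock protein Hspb1 also had the higher response in CD8 cells. Atf3 stood at 8.88 and 8.80 in the CD4 controls, 9.09 and 9.10 in CD4 cells with vorinostat, 5.38 and 4.26 in the CD8 controls and 9.17 and 7.40 in CD8 cells with vorinostat. CD4 cells changed by 0.26 ± 0.23 and did not pass the test, and CD8 cells rose by 3.47 ± 0.23 towards the CD4 level. The difference was 3.21 ± 0.33 (SE, adjusted p = 5.83e-05); without the block its adjusted p was 0.65. Hspb1 was under detection in all arrays but the CD8 drug arrays, at 5.38 and 4.79, with a difference of 2.18 ± 0.33 (SE, adjusted p = 0.000857). Of 19 tested heat shock and protein folding genes, 4 were called higher and 2 lower in CD8. The lower ones included Hsph1, a cytosolic chaperone that fell by 0.86 in CD8 cells and had a difference of -0.81 ± 0.15.

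Ckb, the brain-type creatine kinase that buffers ATP, rose in CD8 cells to the level that CD4 cells already had. It stood at 9.68 and 10.31 in the CD4 controls, 9.21 and 10.05 in CD4 cells with vorinostat, 6.44 and 6.19 in the CD8 controls and 9.77 and 9.67 in CD8 cells with vorinostat. The CD4 arrays overlapped between control and drug, and the CD8 control arrays lay below all others, with the CD8 drug arrays inside the CD4 range (10.6-fold higher than the controls). The difference was 3.77 ± 0.24 (SE, adjusted p = 3.90e-07), and it ranged from 3.58 to 3.95 when each array was left out in turn. Sdc4, a heparan sulfate proteoglycan of the cell surface, rose by 0.90 ± 0.26 in CD8 and changed by -2.34 ± 0.26 in CD4, a fall that passed its test, with a difference of 3.24 ± 0.37 (SE, adjusted p = 0.000128). Gpm6b, a membrane proteolipid best known from neurons, fell in CD4 (-2.42 ± 0.33) and did not pass the test in CD8 (0.78 ± 0.33, adjusted p = 0.0507), with a difference of 3.20 ± 0.47 (SE, adjusted p = 0.000713).

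**Figure D2:**
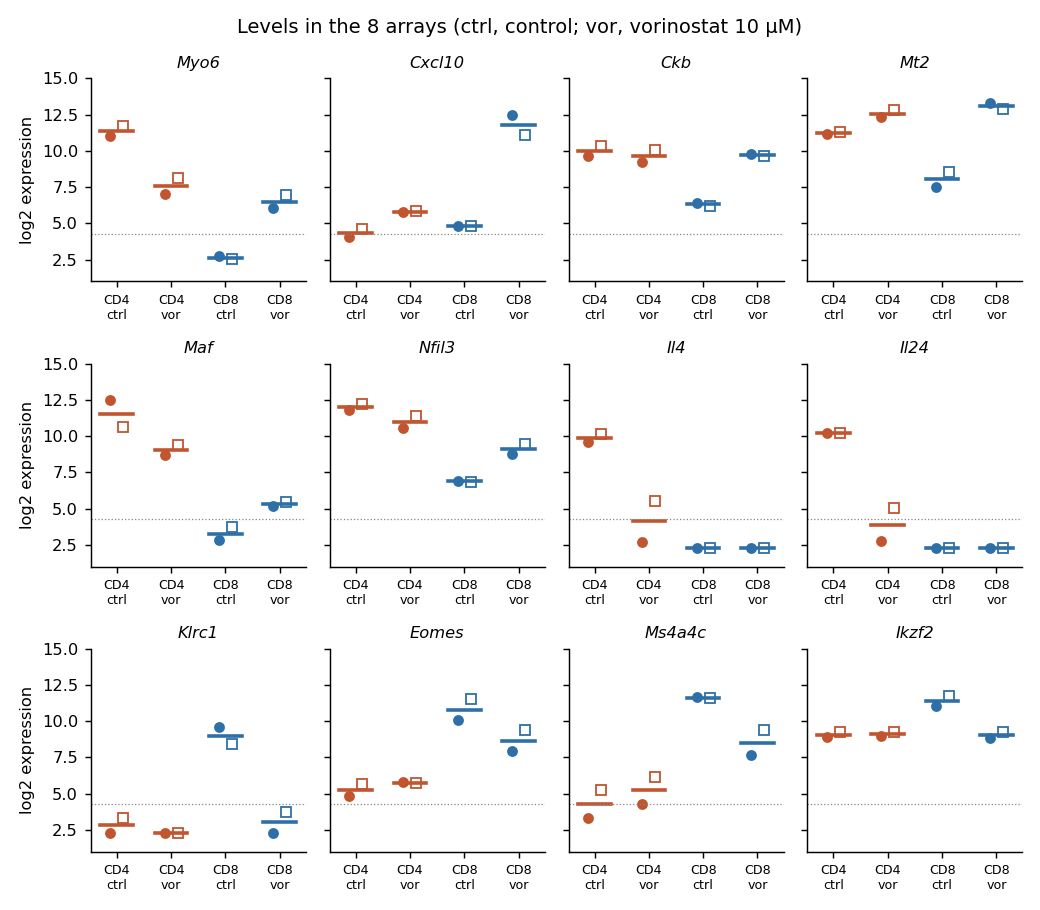
Log2 expression of 12 genes in the 8 arrays, CD4 in orange and CD8 in blue, with replicate 1 as filled circles, replicate 2 as open squares, the group mean as a bar and the detection level of 4.27 as a dotted line. Cxcl10, Ckb, Mt2, Maf, Nfil3 and Myo6 rose in CD8 cells, and Il4 and Il24 fell in CD4 cells while CD8 cells stayed at the floor.

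A set of genes moved in opposite directions in the 2 cell types. The widest difference of all genes called belonged to Myo6, the actin motor that moves towards the minus end of filaments. It stood at 11.06 and 11.70 in the CD4 controls, 7.03 and 8.11 in CD4 cells with vorinostat, 2.78 and 2.52 in the CD8 controls and 6.05 and 6.95 in CD8 cells with vorinostat. CD4 arrays fell and CD8 arrays rose, with no overlap between control and drug in either. It was 14-fold lower with drug in CD4 cells and at least 4.69-fold higher in CD8 cells, and the gap between the cell types went from at least 138-fold lower in CD8 to 2.1-fold lower. The difference was 7.66 ± 0.56 (SE, adjusted p = 1.74e-06), and it was also called without the block. The mean of all its probe sets gave 5.09.

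The transcription factor Maf, which drives IL-4, IL-10 and IL-21 in helper cells, stood at 12.47 and 10.62 in the CD4 controls, 8.67 and 9.41 in CD4 cells with vorinostat, 2.85 and 3.72 in the CD8 controls and 5.17 and 5.44 in CD8 cells with vorinostat. It fell in CD4 cells (-2.51 ± 0.52) and rose in CD8 cells (2.02 ± 0.52) to a mean just over detection, with a difference of 4.53 ± 0.73 (SE, adjusted p = 0.00145). Nfil3, a bZIP factor named for its regulation by interleukins, stood at 11.80 and 12.19 in the CD4 controls, 10.59 and 11.36 in CD4 cells with vorinostat, 6.92 and 6.86 in the CD8 controls and 8.76 and 9.45 in CD8 cells with vorinostat. It fell in CD4 and rose in CD8, the cell types did not meet, and the difference was 3.24 ± 0.28 (SE, adjusted p = 1.39e-05). Both factors were called without the block too, and the mean of all probe sets of Maf gave a difference of 2.77.

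Tgm2, the transglutaminase that crosslinks proteins, stood at 5.29 and 5.43 in the CD8 controls and 7.74 and 7.29 with the drug, against 14.19 and 13.19 in the CD4 controls and 12.01 and 12.05 with the drug. It fell by 1.66 in CD4 and rose by 2.15 ± 0.38 in CD8, a difference of 3.82 ± 0.54 (SE, adjusted p = 0.000564) that left CD8 cells 22.9-fold lower with drug. Socs2, which dampens cytokine receptor signals, fell in CD4 (-1.45 ± 0.27) and rose in CD8 (1.92 ± 0.27), with a difference of 3.37 ± 0.39 (SE, adjusted p = 0.000137), which was 1.63 as the mean of all its probe sets. Ecm1, a secreted matrix protein found in type 2 helper cells, had a difference of 3.31 ± 0.56 (SE, adjusted p = 0.00198), and its CD8 controls lay far apart at 3.57 and 5.52. Tiam1, which activates the GTPase Rac, fell in CD4 (-2.40 ± 0.28) and rose slightly in CD8 (0.87 ± 0.28), with a difference of 3.28 ± 0.40 (SE, adjusted p = 0.000182) that also passed without the block and was 1.10 as the mean of all probe sets. The opposite case was Ms4a4b, a tetraspan membrane protein of T cells. It stood at 8.61 and 11.64 in the CD4 controls, 10.86 and 12.72 in CD4 cells with vorinostat, 14.91 and 14.81 in the CD8 controls and 12.45 and 13.90 in CD8 cells with vorinostat. The CD4 control replicates lay far apart, as did those with drug. It rose in CD4 and fell in CD8 with a difference of -3.35 ± 0.60 (SE, adjusted p = 0.0031).

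The helper cytokines Il4, Il5, Il13 and Il24 fell in CD4 cells and were under detection in CD8 cells with and without drug. They belong to the 6 of 10 tested helper and type 2 cytokines that were called, all higher in CD8, and all 6 had both CD8 means under detection. Where CD8 cells sit at the floor, a fall in CD4 cells can only give a positive difference, so this direction and count were fixed by the levels and say nothing more than the CD4 fall. Il4 stood at 9.59 and 10.16 in the CD4 controls, 2.71 and 5.55 in CD4 cells with vorinostat, 2.31 and 2.25 in the CD8 controls and 2.27 and 2.25 in CD8 cells with vorinostat. Il24, a cytokine of the IL-10 family, stood at 10.21 and 10.21 in the CD4 controls, 2.76 and 5.05 in CD4 cells with vorinostat, 2.27 and 2.25 in the CD8 controls and 2.27 and 2.26 in CD8 cells with vorinostat. For both, CD4 controls were near 10 and CD8 arrays sat at the floor whether or not they had drug. In CD4 cells Il4 was at least 31.2-fold lower and Il24 at least 46.8-fold lower with drug, bounds set by the detection level.

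Il5, which supports eosinophils, stood at 8.04 and 7.76 in the CD4 controls and at the floor in all other arrays, and was at least 12.4-fold lower with drug. Il13, a close partner of Il4 in type 2 responses, was at 8.49 and 8.66 in the CD4 controls and 2.33 and 4.16 with drug. The fitted differences were 5.72 ± 0.71 (SE, adjusted p = 0.000195) for Il4, 6.31 ± 0.82 (SE, adjusted p = 0.00031) for Il24, 5.64 ± 0.76 (SE, adjusted p = 0.000377) for Il5 and 5.24 ± 1.01 (SE, adjusted p = 0.0048) for Il13. These fitted values depend on the array floor. Without the block 3 of the 10 members were called, Il24 and Il5 among them. The B cell markers, which mark the other main lymphocyte of the spleen, moved in parallel with these falls. Their summed level over 12 markers was 11.27 to 12.82 in the CD4 controls and 9.91 to 10.88 in CD4 cells with drug. It was 10.15 to 11.67 in the CD8 controls and 10.01 to 10.74 in CD8 cells with drug. Pax5 was under detection in all 8 arrays, and was the only 1 of the 12 under it in both CD4 control arrays. In the CD8 controls 4 were. Cd79b had means of 8.22 in the CD4 and 7.79 in the CD8 controls, and 4.37 and 4.40 with drug. Ighm had 8.52 and 9.62 in the controls, and with drug was under detection in CD4 cells and at 4.58 in CD8 cells. Of 10 tested B cell markers 1 was called (H2-Ab1, difference 1.56). Their part in the result was not tested.

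Il6ra, Tnfrsf25 and Il12rb1 also had the higher response in CD8 cells. Il6ra, the receptor for IL-6, fell in CD4 cells by 3.11 and did not pass in CD8 (-0.04 ± 0.35), with a difference of 3.06 ± 0.50 (SE, adjusted p = 0.00147), or 1.71 as the mean of all probe sets. Tnfrsf25, a costimulator of the TNF receptor family, was at 5.57 and 6.44 in the CD4 controls and under detection in the 6 other arrays (3.26 ± 0.41 (SE, adjusted p = 0.000233)). Il12rb1, a subunit of the IL-12 and IL-23 receptors, fell in CD4 and rose in CD8 until the cell types were level: it stood at 9.12 and 9.09 in the CD4 controls, 7.77 and 8.34 in CD4 cells with vorinostat, 6.57 and 6.38 in the CD8 controls and 7.76 and 8.43 in CD8 cells with vorinostat. The difference was 2.67 ± 0.41 (SE, adjusted p = 0.000963), and it passed without the block. Of 35 tested cytokine receptor and JAK-STAT genes 10 were called higher and 4 lower in CD8 (median 0.19), and 2 were called without the block. The 4 lower ones included Il18rap, a subunit of the IL-18 receptor, which was at 6.86 and 6.68 in the CD8 controls and 2.50 and 3.66 with drug, and under detection in CD4 (-3.75 ± 0.95 (SE, adjusted p = 0.0211)). That call was lost without CD4 control replicate 2, CD4 vorinostat replicate 1, CD8 control replicate 1 or either CD8 vorinostat array (highest adjusted p = 0.124).

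Cd4 itself belongs to this pattern, with a fitted difference of 4.69 ± 0.83 (SE, adjusted p = 0.00264). Gzma, a protease of cytotoxic granules, was expressed here in the CD4 cells, at 10.53 and 10.41 in the CD4 controls, 5.43 and 7.72 in CD4 cells with vorinostat, 2.37 and 3.46 in the CD8 controls and 2.30 and 2.46 in CD8 cells with vorinostat. It fell in CD4 and was under detection in CD8, so the direction of its difference was fixed by the levels. Its difference of 3.36 ± 0.84 (SE, adjusted p = 0.0195) lost its call when any of the 4 replicate 1 arrays was left out (highest adjusted p = 0.107). Of 17 tested cytotoxic granule genes 2 were called higher in CD8 and none lower, which is 11.8% beside 10.7% of all genes. They were Gzma and Ctsc, the protease that activates granzymes (0.70 ± 0.14 (SE, adjusted p = 0.0061)). The call of Ctsc was lost with the mean of all probe sets (0.37).

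The receptors Klrd1, Klrc1, Klrk1 and Cd160, which NK cells also carry, fell in CD8 cells. In CD4 cells they were under detection, apart from Klrd1 and Cd160 in CD4 control replicate 2. With CD4 cells near the floor, a fall in CD8 cells can hardly give anything but a negative difference. The direction therefore says little more than the CD8 fall, as it does for Xcl1, Il18rap and Ifi209. Klrd1 (CD94), the shared chain of the CD94/NKG2 receptors, stood at 2.52 and 5.30 in the CD4 controls, 2.30 and 2.34 in CD4 cells with vorinostat, 12.61 and 13.25 in the CD8 controls and 3.70 and 8.58 in CD8 cells with vorinostat. Klrc1 (NKG2A), its inhibitory partner, stood at 2.29 and 3.36 in the CD4 controls, 2.29 and 2.28 in CD4 cells with vorinostat, 9.62 and 8.40 in the CD8 controls and 2.28 and 3.77 in CD8 cells with vorinostat. Both were high in the CD8 controls, and with drug Klrc1 was under detection in both CD8 arrays while Klrd1 remained over it in replicate 2. In CD8 cells Klrd1 was 111-fold lower and Klrc1 at least 26.8-fold lower.

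The activating receptor Klrk1 (NKG2D) was at 8.87 and 11.28 in the CD8 controls and 3.12 and 7.84 with drug, and was 24.3-fold lower. Cd160, a further receptor of cytotoxic cells, was at 9.53 and 11.12 in the CD8 controls and 2.45 and 6.73 with drug. The differences were -5.20 ± 1.32 (SE, adjusted p = 0.0214) for Klrd1, -5.45 ± 1.18 (SE, adjusted p = 0.00935) for Klrc1, -4.16 ± 0.74 (SE, adjusted p = 0.00271) for Klrk1 and -4.82 ± 1.24 (SE, adjusted p = 0.0223) for Cd160 (-2.995 as the mean of all probe sets). None of the 4 was called without the block. The calls of Klrd1 and Cd160 were lost when any of the 4 replicate 1 arrays was left out (highest adjusted p = 0.126 and 0.130), and that of Klrc1 without CD8 control replicate 1 (adjusted p = 0.0627). The NK cell list had 9 named members: Ncr1, Klra8, Klra7, Tyrobp, Fcer1g and Klre1 were under detection in all 8 arrays, and Klrd1, Klrk1 and Eomes, which activated CD8 T cells also express, were the 3 tested. Its summed level was 12.94 to 13.89 in the CD8 controls and 8.19 to 10.37 with drug, against 6.12 to 7.19 and 6.60 in both arrays of CD4 cells.

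The transcription factors Eomes, Ikzf2 and Bcl6 fell in CD8 cells. Eomes, a T-box factor of memory and effector CD8 cells, stood at 4.86 and 5.70 in the CD4 controls, 5.82 and 5.72 in CD4 cells with vorinostat, 10.09 and 11.51 in the CD8 controls and 7.92 and 9.41 in CD8 cells with vorinostat. It fell by 2.14 in CD8 and did not pass in CD4 (0.49 ± 0.28), with a difference of -2.62 ± 0.39 (SE, adjusted p = 0.000857). Ikzf2 (Helios) stood at 8.89 and 9.24 in the CD4 controls, 9.003 and 9.24 in CD4 cells with vorinostat, 11.04 and 11.77 in the CD8 controls and 8.82 and 9.23 in CD8 cells with vorinostat. The CD8 controls lay above all other arrays, and with drug the CD8 arrays overlapped the CD4 arrays, a fall of 2.38 and a difference of -2.43 ± 0.37 (SE, adjusted p = 0.000963). Bcl6, a transcriptional repressor found in follicular helper and memory T cells, fell by 1.53 in CD8 (-2.06 ± 0.48 (SE, adjusted p = 0.0135)). Its call was lost without CD4 control replicate 1, CD8 control replicate 1 or CD8 vorinostat replicate 2 (-2.54 to -1.58 with each array left out). The mean of all probe sets of Bcl6 gave -1.03. On the other side Prdm1 (Blimp-1), a factor of terminal effector cells, went from under detection to 5.51 and 6.27 in CD8 cells and was at 6.28 to 6.94 in CD4 cells (3.02 ± 0.65 (SE, adjusted p = 0.00872)); leaving out CD4 control replicate 1 gave an adjusted p of 0.0547. Of 22 tested effector and memory transcription factors 6 were called higher and 4 lower in CD8, with a median of 0.42, and 4 were called without the block.

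Ms4a4c and the interferon-inducible HIN-200 genes Mndal and Ifi209 fell in CD8 as well. Ms4a4c, a neighbour in family of Ms4a4b, stood at 3.35 and 5.26 in the CD4 controls, 4.31 and 6.14 in CD4 cells with vorinostat, 11.65 and 11.59 in the CD8 controls and 7.64 and 9.36 in CD8 cells with vorinostat. It was 8.69-fold lower with drug in CD8 and did not pass in CD4 (0.92 ± 0.43), with a difference of -4.04 ± 0.61 (SE, adjusted p = 0.000879). Mndal rose in CD4 (1.16 ± 0.35) and fell in CD8 (-2.05 ± 0.35), with a difference of -3.20 ± 0.49 (SE, adjusted p = 0.000963). Ifi209 was at 8.79 and 10.38 in the CD8 controls and 3.96 and 6.91 with drug, and under detection in CD4 (-4.50 ± 0.54 (SE, adjusted p = 0.000162), or -2.84 as the mean of all probe sets). AI504432, an unnamed transcript, fell in CD8 alone (-2.73 ± 0.44 (SE, adjusted p = 0.00147)). Adh1, an alcohol dehydrogenase, and Wls, which carries Wnt proteins to the surface, rose in CD4 and fell in CD8 (-2.38 ± 0.37 and -2.13 ± 0.31, the latter -1.30 as the mean of all probe sets). None of these 6 was called without the block.

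Other genes with the lower CD8 response rose more in CD4 cells. The transcript 1500009L16Rik stood at 3.82 and 5.11 in the CD4 controls, 8.39 and 8.46 in CD4 cells with vorinostat, 9.22 and 9.33 in the CD8 controls and 9.90 and 10.34 in CD8 cells with vorinostat. It was 15.6-fold higher in CD4 and 1.8-fold higher in CD8, with a difference of -3.11 ± 0.45 (SE, adjusted p = 0.000661), and was the only named gene of this direction, apart from Nop16, called without the block. The mean of all its probe sets gave -1.55. Tubb2b, a neuronal beta-tubulin, stood at 6.54 and 6.003 in the CD4 controls, 10.35 and 9.89 in CD4 cells with vorinostat, 9.88 and 10.28 in the CD8 controls and 12.16 and 11.46 in CD8 cells with vorinostat. It rose in both and began far higher in CD8, with a difference of -2.12 ± 0.43 (SE, adjusted p = 0.00619). Sox4, a HMG-box factor, rose by 3.64 ± 0.43 in CD4 and 1.17 ± 0.43 in CD8 (-2.47 ± 0.60 (SE, adjusted p = 0.0178)), a call lost without CD4 control replicate 1, CD8 control replicate 2 or CD8 vorinostat replicate 2 (highest adjusted p = 0.0992) and with the mean of all probe sets, which gave -0.43.

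Neuronal genes, which lie silent in resting lymphocytes and often rise under these drugs, had members on both sides. Of 32 named on the array 18 were tested, and 3 were called higher and 2 lower in CD8. The median changes of those tested were 1.29 in CD4 and 1.99 in CD8 cells. A gene silent in the controls is tested only if other arrays detect it, so the filter favours rises in these medians. Bex2, an adaptor protein of neurons, stood at 2.47 and 3.91 in the CD4 controls, 5.80 and 7.22 in CD4 cells with vorinostat, 2.51 and 3.03 in the CD8 controls and 7.61 and 8.57 in CD8 cells with vorinostat. It was under detection in all 4 controls and detected in all 4 drug arrays (1.997 ± 0.39 (SE, adjusted p = 0.00537)). Uchl1, a neuronal deubiquitinase, reached 4.86 and 4.80 in CD4 and 6.84 and 7.38 in CD8 (2.05 ± 0.49 (SE, adjusted p = 0.0151)), a call lost without CD4 control, CD4 vorinostat or CD8 control replicate 1, or CD8 vorinostat replicate 2. The list of histone deacetylases and sirtuins, the drug's targets and their relatives, also holds Sin3a, which is neither. Of its 18 tested members, limma called 0 with the block and 0 without it, and 4 had an unadjusted p under 0.05. Their differences ran from -0.41 (Hdac7 and Sin3a) to 1.04 for Hdac9.

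The pathway lists were read against the background of 10.7% of all genes called, 5.36% higher and 5.32% lower. Among actin and membrane-shaping genes 8 of 28 tested were higher in CD8 and none lower (median 0.38), and 2 were called without the block, Myo6 and Espn. Espn, which bundles actin, was at 6.58 and 6.37 in the CD4 controls and under detection elsewhere (2.70 ± 0.32 (SE, adjusted p = 0.000165)), so its direction was fixed by the levels. Fscn1, another bundling protein, stood at 10.83 and 11.01 in the CD4 controls, 11.71 and 11.86 in CD4 cells with vorinostat, 8.39 and 7.66 in the CD8 controls and 11.68 and 11.03 in CD8 cells with vorinostat and rose in both, with a difference of 2.47 ± 0.37 (SE, adjusted p = 0.000857) that was 0.67 as the mean of all probe sets. S100a6, a calcium-binding protein, fell by 3.22 in CD4 (2.76 ± 0.63 (SE, adjusted p = 0.0126)), a call lost without either CD4 replicate 1 array or CD8 control replicate 2 (highest adjusted p = 0.0673).

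**Figure D3:**
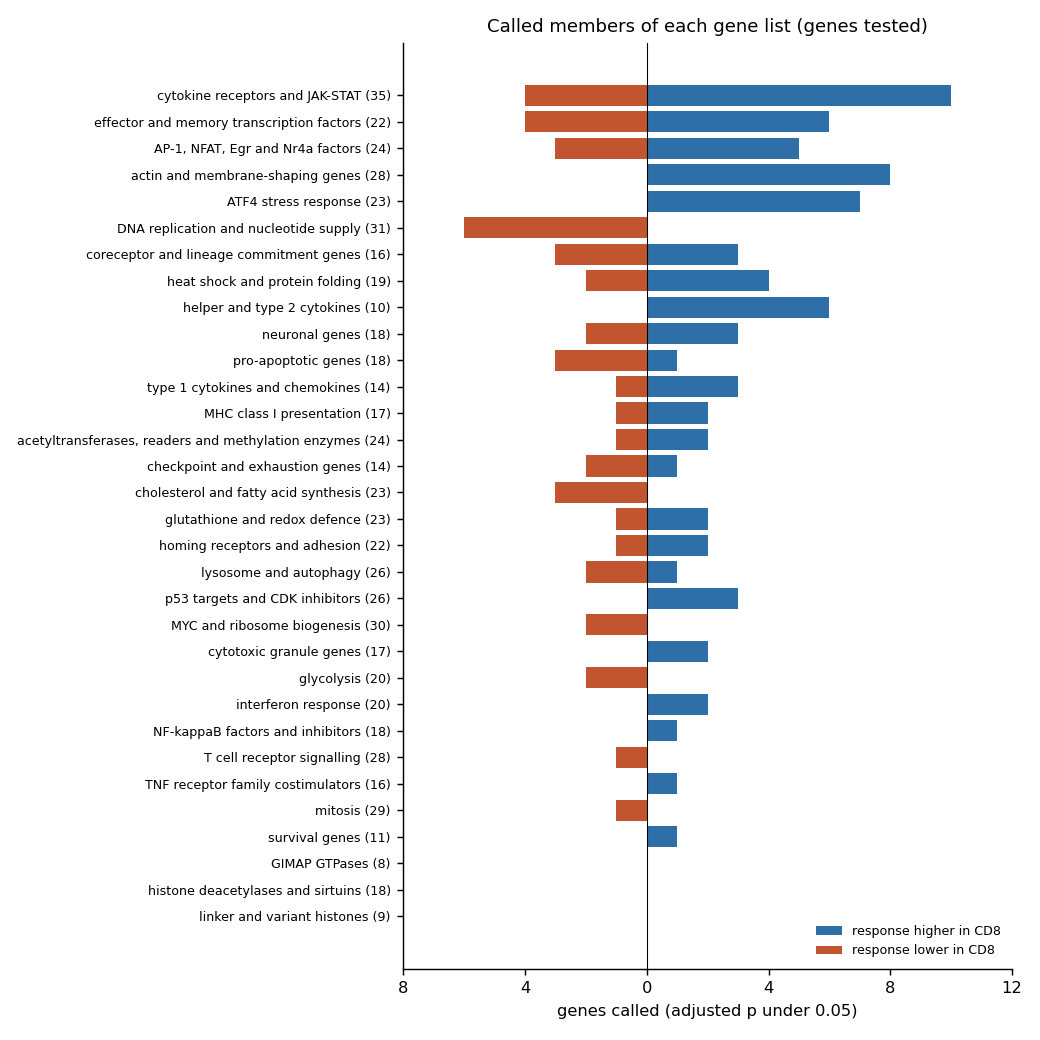
Genes called in each of 32 gene lists, with the number tested in brackets, bars to the right for a response higher in CD8 cells and to the left for a lower one, at an adjusted p under 0.05. Cytokine receptors and JAK-STAT genes reach 10 to the right and 4 to the left, and DNA replication genes reach 6 to the left.

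ATF4 stress genes, switched on when amino acids run short or proteins misfold, were called higher in CD8 for 7 of 23 tested and lower for none (median 0.47), 2 of them without the block. All 7 had the higher mean in the CD4 controls than in the CD8 controls. Trib3, a pseudokinase of this pathway, stood at 8.30 and 7.88 in the CD4 controls, 5.19 and 5.05 in CD4 cells with vorinostat, 5.68 and 5.29 in the CD8 controls and 5.15 and 4.98 in CD8 cells with vorinostat. The CD4 controls lay above all other arrays, and the 4 drug arrays lay together (2.55 ± 0.38 (SE, adjusted p = 0.00081)). Nupr1, a small stress-induced nuclear protein, was at 5.96 and 5.58 in the CD4 controls and under detection elsewhere (3.20 ± 0.38 (SE, adjusted p = 0.00016)). With CD8 cells under detection, its fall in CD4 cells could give only a positive difference. Its direction in the count of this list was therefore fixed by the levels. Atf5 fell in both cell types, by 2.69 in CD4 and 0.87 in CD8 (1.82 ± 0.34 (SE, adjusted p = 0.0038)). Stc2, a secreted glycoprotein, fell in both as well (3.34 ± 0.69 (SE, adjusted p = 0.00743)), to means of 3.41 in CD4 and 3.33 in CD8. Both means were under detection, so both falls are limited by the floor. The call of Stc2 was lost without CD8 control replicate 1 (2.84 to 3.84 with each array left out).

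Of DNA replication and nucleotide supply genes 6 of 31 tested were called lower in CD8 and none higher (median -0.48), and none without the block. Pola1, the catalytic subunit of the primase-coupled polymerase, stood at 8.57 and 8.92 in the CD4 controls, 8.07 and 8.46 in CD4 cells with vorinostat, 9.54 and 9.64 in the CD8 controls and 7.76 and 8.54 in CD8 cells with vorinostat. It fell in both cell types, by 0.48 in CD4 and 1.44 in CD8 (-0.96 ± 0.23 (SE, adjusted p = 0.0145), or -0.48 as the mean of all probe sets). Lig1, which seals nicks, had a difference of -0.82 ± 0.22 (SE, adjusted p = 0.0279) and Cdc6, which loads the helicase, -0.84 ± 0.21 (SE, adjusted p = 0.02). These calls were lost when CD8 control replicate 1, or several other arrays, was left out (highest adjusted p = 0.0903, 0.142 and 0.0952). The list of MYC targets and ribosome biogenesis had 2 of 30 called lower and none higher, with a median of -0.52. Nop16, a nucleolar protein, stood at 8.97 and 8.89 in the CD4 controls, 9.09 and 8.95 in CD4 cells with vorinostat, 10.02 and 9.96 in the CD8 controls and 8.93 and 8.91 in CD8 cells with vorinostat. It fell by 1.07 in CD8 to the CD4 level and did not pass in CD4 (0.09 ± 0.10), with a difference of -1.16 ± 0.14 (SE, adjusted p = 0.00016) that also passed without the block (-0.58 as the mean of all probe sets). Utp20, of the small subunit processome, fell in both (-1.13 ± 0.20 (SE, adjusted p = 0.00315)).

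AP-1, NFAT, Egr and Nr4a factors, the early genes of T cell receptor signals, were split, with 5 of 24 higher and 3 lower in CD8 and none without the block. Ier3, an early response gene, fell in CD4 (by 1.26) and rose in CD8 (0.53 ± 0.16), with a difference of 1.79 ± 0.22 (SE, adjusted p = 0.000184). The orphan receptors Nr4a2 and Nr4a3 were lower (-2.03 ± 0.53 and -1.67 ± 0.41), and both calls were lost without CD8 control or CD8 vorinostat replicate 1, among others. The mean of all probe sets gave -0.74 for Nr4a3. Of 28 T cell receptor signalling genes 1 was called lower and none higher. It was Rasgrp1, the Ras activator downstream of the receptor, which fell by 1.23 in CD4 and 2.90 in CD8 (-1.67 ± 0.38 (SE, adjusted p = 0.013)), a call lost without CD4 vorinostat replicate 2, CD8 control replicate 1 or CD8 vorinostat replicate 1 (highest adjusted p = 0.0773), and -0.91 as the mean of all probe sets.

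Coreceptor and lineage genes had 3 of 16 called each way. Runx3, which silences Cd4 in CD8 cells, fell by 1.91 in CD4 and did not pass in CD8 (-0.39 ± 0.26), with a difference of 1.52 ± 0.37 (SE, adjusted p = 0.0172) that was lost without CD4 control, CD4 vorinostat or CD8 control replicate 1, or CD8 vorinostat replicate 2. Tox and Myb, factors of T cell development, fell in both and further in CD8 (-1.64 ± 0.48 and -1.90 ± 0.47), and both calls were lost without CD8 control replicate 1 and several others (highest adjusted p = 0.182 and 0.114). Cd8a and Cd8b1 fell in both cell types, and neither difference was called. The 95% interval of the difference was -1.03 to 0.68 for Cd8a, with 1 of its 4 other detected probe sets on the opposite side (0.21), and -0.51 to 1.20 for Cd8b1.

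Of 18 tested pro-apoptotic genes 1 was called higher and 3 lower in CD8, 22.2% beside 10.7% of all genes. Casp6, an executioner caspase, stood at 11.78 and 11.71 in the CD4 controls, 11.24 and 11.31 in CD4 cells with vorinostat, 7.49 and 8.24 in the CD8 controls and 9.31 and 9.20 in CD8 cells with vorinostat, and rose in CD8 alone (1.87 ± 0.35 (SE, adjusted p = 0.00409), or 0.92 as the mean of all probe sets). Bcl2l11 (Bim), an activator of mitochondrial death, rose in both cell types, by 1.86 ± 0.19 in CD4 and 0.96 ± 0.19 in CD8, and its difference of -0.90 ± 0.27 (SE, adjusted p = 0.0446) was lost on leaving out any 1 of the 8 arrays and with the mean of all probe sets (-0.82). Casp1, the inflammasome caspase, rose in CD4 and fell in CD8 (-1.46 ± 0.23 (SE, adjusted p = 0.0011)). Of 26 p53 targets and CDK inhibitors 3 were higher in CD8 and none lower. Cdkn1c (p57), an inhibitor of cyclin-dependent kinases, stood at 3.62 and 4.56 in the CD4 controls, 6.02 and 6.51 in CD4 cells with vorinostat, 2.63 and 3.59 in the CD8 controls and 7.84 and 6.62 in CD8 cells with vorinostat and rose in both, with a difference of 1.94 ± 0.52 (SE, adjusted p = 0.027) lost without either CD4 control, either CD4 vorinostat array, or CD8 control or CD8 vorinostat replicate 1 (1.27 to 2.62). Gadd45g, a stress gene of the same list, rose in CD8 alone (2.78 ± 0.64 (SE, adjusted p = 0.0131)), and its call was lost without CD4 control replicate 2 or CD8 control replicate 1 (1.86 to 3.69).

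Metabolic and antigen presentation lists were called at 10.0% to 17.6%, beside 10.7% of all genes. Cholesterol and fatty acid synthesis had 3 of 23 called lower and none higher (median -0.38) and glycolysis 2 of 20 lower and none higher (median 0.11). Pmvk, of the mevalonate pathway, fell by 0.75 in CD8 and had a value of -0.01 ± 0.13 in CD4, with a difference of -0.74 ± 0.19 (SE, adjusted p = 0.0205) that lost its call without any of the 4 replicate 1 arrays. Of 23 glutathione and redox genes 2 were higher and 1 lower. Hmox1, which breaks down heme, fell by 1.13 in CD4 and did not pass in CD8 (0.11 ± 0.20), a difference of 1.24 ± 0.28 (SE, adjusted p = 0.0124) lost without CD4 control or CD4 vorinostat replicate 1. Of 17 MHC class I genes 2 were higher and 1 lower. The lower one was Nlrc5, the activator of class I genes, which rose in CD4 (1.04 ± 0.17) and did not pass in CD8 (-0.33 ± 0.17), with a difference of -1.36 ± 0.24 (SE, adjusted p = 0.00261).

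The other lists had 4 calls or fewer each. Type 1 cytokines and chemokines, of which Cxcl10, Ccl5 and Xcl1 are described above, had 3 of 14 called higher and 1 lower. The other was Lif, a cytokine that fell by 4.17 in CD4 and 1.63 in CD8 (2.54 ± 0.58 (SE, adjusted p = 0.0123)). Lif ended at a mean of 4.09 in CD8 cells, under detection, so its fall there is limited by the floor. Its call was lost without CD4 control replicate 1, CD4 vorinostat replicate 1 or CD8 vorinostat replicate 2 (highest adjusted p = 0.0673). Checkpoint and exhaustion genes had 1 of 14 higher and 2 lower, TNF receptor family costimulators 1 of 16 higher, homing receptors and adhesion genes 2 of 22 higher and 1 lower, and NF-kappaB factors 1 of 18 higher. That one was Bcl3, a nuclear partner of NF-kappaB, which fell by 2.60 in CD4 and 1.14 in CD8 (1.46 ± 0.28 (SE, adjusted p = 0.00521)). Mitosis genes had 1 of 29 lower, survival genes 1 of 11 higher, acetyltransferases, readers and methylation enzymes 2 of 24 higher and 1 lower, and lysosome and autophagy genes 1 of 26 higher and 2 lower. Kat2a (GCN5), a histone acetyltransferase, fell by 0.75 in CD8 and did not pass in CD4 (0.07 ± 0.11), with a difference of -0.82 ± 0.15 (SE, adjusted p = 0.00341). Linker and variant histones (9 tested) and GIMAP GTPases (8 tested) had 0 called by limma, with or without the block, and 1 and 1 members at an unadjusted p under 0.05.

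The distance between the cell types shrank with dose. The SD over genes of CD8 minus CD4 was 0.964 and 0.911 in the controls (replicates 1 and 2), 0.939 and 0.854 at 0.5 µM, 0.764 and 0.757 at 2 µM and 0.600 and 0.580 at 10 µM. Both replicate numbers fell at each step. Genes more than 1 log2 apart in both replicates numbered 840 in the controls, 742 at 0.5 µM, 558 at 2 µM and 299 at 10 µM. Of the 840 in the controls 336 were higher in CD8 and 504 in CD4, and of the 299 with 10 µM 145 and 154. The test of CD8 against CD4 called 3706 genes in the controls (37.5%) and 1625 with 10 µM vorinostat (16.5%).

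**Figure D4:**
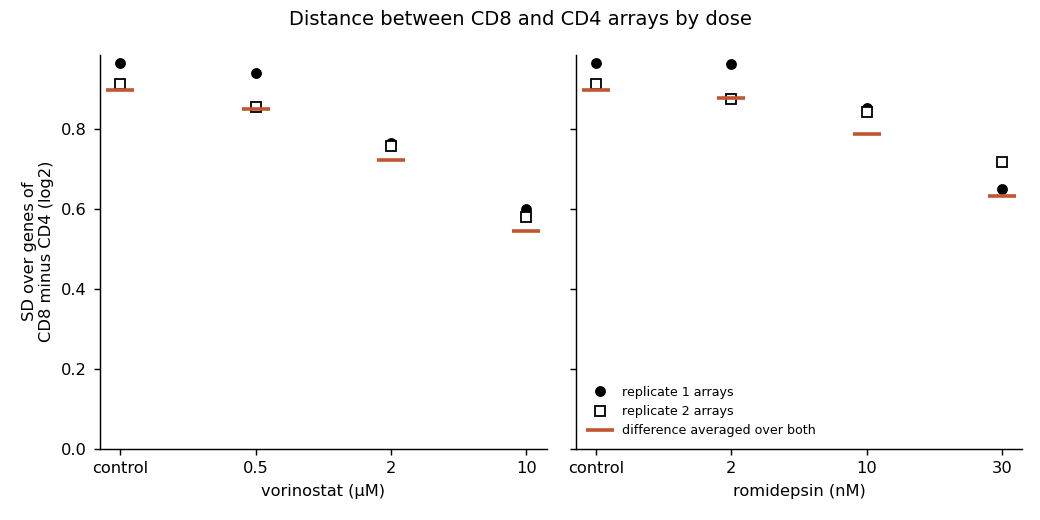
SD over 9870 genes of the log2 difference between CD8 and CD4 arrays, for replicate 1 (filled circles), replicate 2 (open squares) and the difference averaged over both (bars), by dose of vorinostat in µM and romidepsin in nM. The SD falls from 0.964 and 0.911 in the controls to 0.600 and 0.580 at vorinostat 10 µM.

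The 0.5 µM arrays are no part of the comparison itself, although the fit draws its spread from all 28 arrays. They show from which side the called genes came. At that dose the gap between the cell types lay opposite to the sign of the 10 µM difference for 947 of 1054 called genes (89.8%), against 68.6% of all tested. That is, genes with the higher response in CD8 were mostly those that CD4 cells expressed more, and the reverse. Cxcl10 was of the other kind, 1.4-fold higher in CD8 than in CD4 cells without drug and 63.4-fold higher with 10 µM. The 1054 include genes under detection in 1 cell type with and without drug, 79 in CD8 and 57 in CD4. For these the side was largely fixed by the floor, so that part of the count says little.

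At lower doses fewer genes differed, and these comparisons share the 4 control arrays with that at 10 µM, so their values are only set side by side. At 2 µM 143 genes were called (1.45%), 113 of them higher (1.14%) and 30 lower (0.304%) in CD8, and at 0.5 µM 2 were, both higher (0.0203%). Ckb had a difference of 3.10 ± 0.24 at 2 µM (adjusted p = 1.20e-05), Myo6 of 5.45 ± 0.56 (0.000233) and Nfil3 of 2.05 ± 0.28 (0.00209). Cxcl10 did not pass at 2 µM (1.13 ± 0.78, 0.605), nor did Eomes (-0.14 ± 0.39, 0.944). Of 105 named genes with a called difference, the gap moved one way at every step from control to 0.5, 2 and 10 µM in 74, and 33 were called at 2 µM with the same sign. These genes were chosen by their difference between control and 10 µM in the same arrays, which favours such a course. The counts therefore only describe the named genes, and the share of all genes with such a course was not counted.

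The step from 0.5 to 2 µM shares no array with the comparison, though both take their spread from the same fit. It called 15 genes (0.152%), 14 of them higher (0.142%) and 1 lower (0.0101%) in CD8. Of the 105 named genes 102 had the same sign there and 6 of these were called: Ckb, Nfil3, Myo6, Usp18, Nupr1 and Hspb1. The share of same signs over all genes was not counted, so the 102 cannot be set against a background. Over all genes the SD of CD8 minus CD4 also fell over this step, from 0.939 and 0.854 to 0.764 and 0.757. The step difference was 3.44 ± 0.56 for Myo6 (adjusted p = 0.0304), 1.32 ± 0.24 for Ckb (0.0456) and 1.70 ± 0.28 for Nfil3 (0.032).

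**Figure D5:**
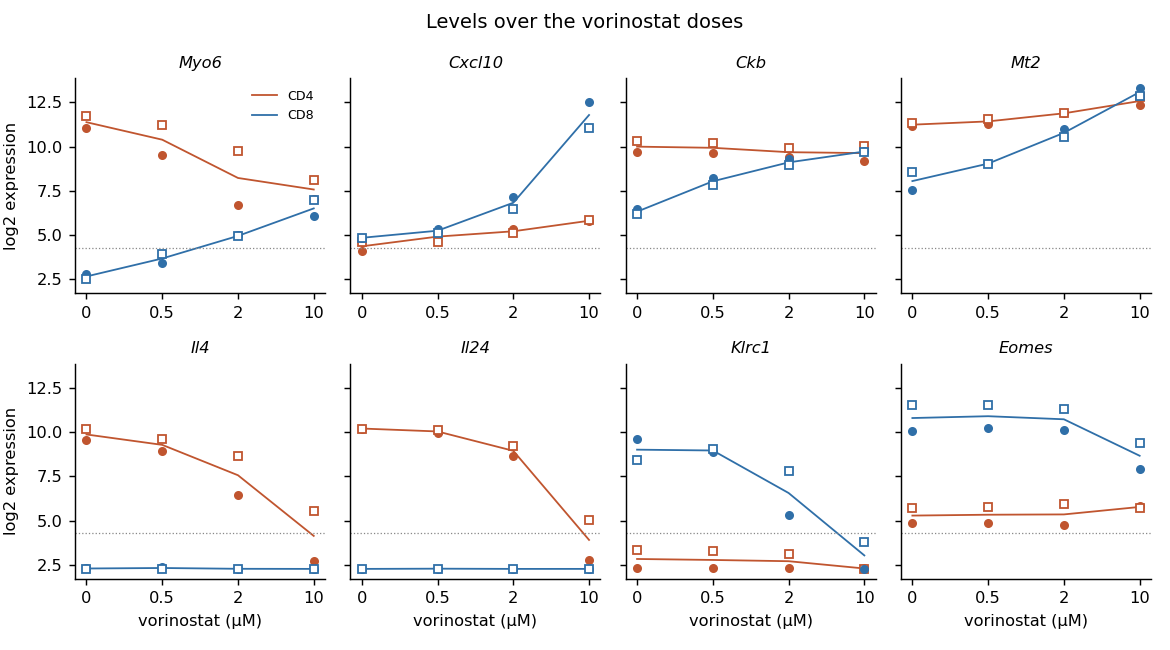
Log2 expression of 8 genes at 0, 0.5, 2 and 10 µM vorinostat (evenly spaced, not to scale) in CD4 (orange) and CD8 cells (blue), with replicate 1 as filled circles, replicate 2 as open squares, lines through the means and the detection level dotted. Ckb and Mt2 climbed in CD8 cells from the lowest dose on, while Cxcl10 in CD8 and Eomes in CD8 moved mostly between 2 and 10 µM.

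Romidepsin at 30 nM, a cyclic depsipeptide that inhibits the same class of enzymes, where vorinostat is a hydroxamic acid, gave 1734 called differences (17.6%) against the same controls, 833 higher (8.44%) and 901 lower (9.13%) in CD8. Of the 105 named genes 74 were called there with the same sign. These genes were chosen by a difference that uses the same 4 control arrays, which favours equal signs. The 74 therefore only describe the named genes, and the share of equal signs over all genes was not counted. Myo6 had 7.56 ± 0.56, Ckb 3.62 ± 0.24, Nfil3 3.21 ± 0.28 and 1500009L16Rik -3.36 ± 0.45. Smaller values than with vorinostat were given by Cxcl10 (2.46 ± 0.78, adjusted p = 0.0417), Ccl5 (1.40 ± 0.70, 0.174) and Eomes (-1.67 ± 0.39, 0.0105). Whether the drugs differ for these genes was not tested.

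Most of the response was shared. For 6175 genes (62.6%) the 95% interval of the difference lay within 1 log2 of 0; without the replicate block, whose intervals are wider, it did for 1525 (15.5%). Among the 6175, 2798 had all 4 means detected and changed in the same direction in both cell types, 1555 up and 1243 down. Ttc26, a protein of cilia, rose by 3.18 ± 0.26 in CD4 and 3.22 ± 0.26 in CD8, with an interval of the difference of -0.73 to 0.81. Coprs, which guides an arginine methyltransferase to histones, rose by 3.67 ± 0.26 and 3.48 ± 0.26, though another of its probe sets gave a difference of 0.63. Insl6, a relaxin-family peptide, and Morn2 rose by 3.26 and 3.04 in CD4 and by 3.28 and 2.92 in CD8. Dock8, an exchange factor needed for T cell migration, fell by 3.04 in CD4 and 3.13 in CD8, and Izumo1r (folate receptor 4) by 3.10 and 2.96.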

How the data were processed

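The values are from Affymetrix Mouse430_2 arrays, 28 in all and 2 in each of 14 groups. The deposited table holds log2 expression per probe set, made by the authors with GCRMA, per the submitters' processing notes; its version and settings, and whether the replicate numbers were normalized together, are not given in the sources used here. The log base was taken from the range of the values. Their lowest value is 2.2684 in arrays numbered 1 and 2.2545 in arrays numbered 2.

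Of 45101 probe sets, 34945 name 1 gene, 932 several, 9160 none in the annotation used, and 64 are array controls. Each of 18193 genes was represented by its probe set with the highest mean, among those that name it alone. A level counted as detected when it was more than 2 log2 units above the most frequent value (2.27), and the 9870 genes detected in 2 or more arrays entered the tests. The number of arrays limits the precision.

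limma 3.58.1 (R 4.3.3) fitted 14 group means to all 28 arrays with the replicate number as a block within each cell type (12 residual degrees of freedom), with Benjamini-Hochberg adjustment over 9870 genes. The block is in the fit because the comparison takes differences by replicate number. Deviations of same-numbered arrays from their group means correlated at 0.722 or more in all pairs of groups, and the sex-linked genes differ between the numbers. The fit was tested on simulated data. "At least" folds use the detection level for a group whose mean is under it.

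Genes named were the 12 largest called differences each way with all 4 means detected, the 5 largest each way with a mean under detection, up to 4 called members of each of 32 pathway lists by size, the 6 largest with opposite responses, and 6 shared responses. H2-Ab1, Hdac7, Hdac9 and Sin3a were named after their values were seen. Members and lists were chosen with earlier results of these data known. Alternatives were the block, the normalization, the filter, the probe set rule, an actin covariate and each array left out.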

Additional observations from a re-analysis of the deposited data

Results flagged for a closer look

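The responses of CD8 and CD4 cells to 1 treatment differed by a test of the difference itself in 1054 genes at vorinostat 10 µM. The same test found 143 genes at 2 µM, 2 at 0.5 µM and 1734 with romidepsin 30 nM, all against the same control arrays. The step from 0.5 to 2 µM, which uses no control array, gave 15.

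In 34 of 105 named genes with a called difference, both replicates moved one way in CD4 cells and the opposite way in CD8 cells, and in 17 of these the change was also called in each cell type. Of the 17, 11 fell in CD4 and rose in CD8, with differences on the log2 scale of 7.66 for Myo6, 4.53 for Maf, 3.82 for Tgm2, 3.37 for Socs2, 3.31 for Ecm1, 3.28 for Tiam1, 3.24 for Nfil3, 3.24 for Sdc4, 2.67 for Il12rb1, 1.79 for Ier3 and 0.61 for Kdm5b. The other 6 rose in CD4 and fell in CD8, with -3.35 for Ms4a4b, -3.20 for Mndal, -2.38 for Adh1, -2.13 for Wls, -1.46 for Casp1 and -1.33 for Nt5e. CD8 controls of Myo6 and Maf were under detection. Without the replicate block 6 of the 17 were called. The named genes were chosen for large differences and partly for opposite responses, so the 34 and the 17 only describe them. Over all 9870 genes tested, both changes were called in opposite directions for 114. With 2 arrays a group no array could be tested as standing apart from its group.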

How the results depend on the processing

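With no replicate block, which is the unpaired analysis, the count for CD8 minus CD4 response to vorinostat 10 uM was 57. It was 1776 for the CD4 response to vorinostat 10 uM, 2029 for the CD8 response to vorinostat 10 uM, 614 for CD8 minus CD4 in controls and 85 for CD8 minus CD4 with vorinostat 10 uM. CD8 minus CD4 responses gave 1 at 2 uM (209 at an unadjusted p under 0.05 by limma), 0 at 0.5 uM (21), 99 with romidepsin 30 nM and 0 for the step from 0.5 to 2 uM (109). For the difference at 10 µM, 1 replicate block shared by both cell types gave 611 genes and the 8 arrays alone with a shared block 29 (1558 at an unadjusted p under 0.05). The actin covariate gave 1650, with 2679 for the CD4 and 3862 for the CD8 response. Leaving out each array gave 438 to 1093. A prior following the mean level, quantile normalization, equal medians, no filter, detection in all 8 arrays and the mean of all probe sets gave 818 to 1226 genes.

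Of 105 named genes called, 21 stayed called without the block, 80 with a shared block, 11 with the 8 arrays alone and 62 to 93 with 1 array left out, and none changed sign in any alternative run. With no filter 78 stayed called. With the mean of all probe sets of a gene 92 did, and the value of 30 moved by over 1.5 times. The SD over genes of CD8 minus CD4, 0.896 in the controls and 0.544 at 10 µM after averaging the replicates, was 0.665 and 0.410 with no filter, 0.694 and 0.455 with detection in all 8 arrays, 0.762 and 0.461 with the mean of all probe sets, and 0.911 to 0.964 and 0.580 to 0.600 with 1 replicate number left out. The smaller counts of arrays and degrees of freedom were the construction of the settings that left out arrays; the cause of the other changes was not tested. Differences of genes near the array floor are limited by signal over background, and 2 arrays a group limit all of them.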
